A study of Arabidopsis thaliana with 6 samples.

Results

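Small RNA (sRNA) was measured at 8 genes whose products write or remove DNA methylation in *Arabidopsis thaliana*. *NRPD1*, *CLSY1*, *RDR2* and *DCL3* act in the production of siRNA, *AGO4* and *NRPE1* act where siRNA meets its target, and *ROS1* and *IBM1* act against methylation. An sRNA cluster, a genomic interval with a count of sRNA reads in every library, was assigned to a gene if 1 base or more of it fell in the gene or in the 1 kb on either side. By this rule 6 of the 17131 clusters in the table were chosen, 1 each at 6 of the 8 genes, and *AGO4* and *ROS1* had none. Given the genes, position alone chose the clusters, with no measured value. The genes themselves were chosen with earlier results of these data known.

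The plants were *A. thaliana* ecotype Col-0, grown at a day length of 12 h and 22 °C, and each library came from rosette leaves of a single plant taken at bolting. The memory group held 2 first-generation plants that descended from an *MSH1* RNAi line and had lost the transgene, with delayed flowering and altered growth. The wild type group held 4 isogenic Col-0 plants without the transgene. The memory plants were sibs from 1 parent, so memory and family cannot be told apart. Total counts per library ran from 10151442 to 18134284 in wild type and were 12099251 and 7966799 in memory. CPM are the counts of a cluster scaled to a common library total, here after adjustment by the TMM method. In these units 3 counts corresponded to between 0.202 and 0.491 CPM. Rank correlations over clusters were 0.908 to 0.910 among wild type 2 to 4. Wild type 1 stood apart, at 0.828 to 0.835 with the other wild type libraries. Memory 1 correlated at 0.887 to 0.896 with wild type 2 to 4 and at 0.875 with memory 2. Memory 2 was also further off, at 0.848 to 0.867 with wild type 2 to 4. The correlations of wild type 1 were 0.840 with memory 1 and 0.816 with memory 2. No cluster lay within 2 kb of *MSH1* (AT3G24320), and the nearest, 2088 bases away, gave 17.3 ± 6.46 CPM over the wild type plants (SD, n = 4) and 14.2 ± 6.21 CPM over the memory plants (SD, n = 2).

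In RNA-directed DNA methylation (RdDM), RNA polymerase IV, brought to its sites by chromatin remodellers of the CLASSY family, makes short transcripts that RDR2 turns into double-stranded RNA. DCL3 cuts this RNA into siRNA, which AGO4 binds and carries to the scaffold transcripts of RNA polymerase V, where cytosines in all sequence contexts are methylated. ROS1, a DNA glycosylase, excises methylated cytosine, and IBM1, a histone demethylase, keeps lysine 9 methylation of histone H3 and CHG methylation out of gene bodies. Genes of this machinery can themselves carry methylated DNA and siRNA. *ROS1* and *IBM1* are known cases of methylated DNA, in a promoter region and a long intron.

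The 300 bases of cluster sequence next to the gene, or for *IBM1* next to the end of its short transcript, are given for 4 of the 6 clusters, because how much of a cluster is unique in the genome bears on where its reads could be placed. They were read 5′ to 3′ on the plus strand, which is the coding strand of these 4 genes. Capitals mark bases inside a word of 24 bases that occurs more than once, on either strand, in the reference genome. All sequences of the reference were searched for this, not chromosomes 1 to 5 alone. The stretches are chr3:15753008-15753307 (*DCL3*, upstream), chr2:16714018-16714317 (*NRPE1*, upstream), chr4:6784700-6784999 (*RDR2*, downstream) and chr3:2430204-2430503 (*IBM1*, intron), all in TAIR10.
DCL3: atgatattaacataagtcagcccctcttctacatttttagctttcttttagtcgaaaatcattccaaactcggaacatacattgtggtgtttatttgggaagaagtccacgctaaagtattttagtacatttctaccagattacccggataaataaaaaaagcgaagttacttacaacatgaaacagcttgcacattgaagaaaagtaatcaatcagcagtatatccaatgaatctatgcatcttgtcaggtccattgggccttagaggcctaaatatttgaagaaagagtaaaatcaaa
NRPE1: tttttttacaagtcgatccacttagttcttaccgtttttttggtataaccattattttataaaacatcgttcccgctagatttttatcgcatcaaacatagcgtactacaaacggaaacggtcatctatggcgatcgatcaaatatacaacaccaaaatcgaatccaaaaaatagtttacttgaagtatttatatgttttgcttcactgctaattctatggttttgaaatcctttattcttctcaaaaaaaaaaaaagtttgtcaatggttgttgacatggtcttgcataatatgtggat
RDR2: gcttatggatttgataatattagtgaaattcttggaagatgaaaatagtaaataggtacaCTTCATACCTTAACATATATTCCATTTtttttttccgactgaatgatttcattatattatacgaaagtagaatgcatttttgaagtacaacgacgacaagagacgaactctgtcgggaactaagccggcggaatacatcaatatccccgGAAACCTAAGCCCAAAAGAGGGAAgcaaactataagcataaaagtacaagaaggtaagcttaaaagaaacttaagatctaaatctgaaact
IBM1: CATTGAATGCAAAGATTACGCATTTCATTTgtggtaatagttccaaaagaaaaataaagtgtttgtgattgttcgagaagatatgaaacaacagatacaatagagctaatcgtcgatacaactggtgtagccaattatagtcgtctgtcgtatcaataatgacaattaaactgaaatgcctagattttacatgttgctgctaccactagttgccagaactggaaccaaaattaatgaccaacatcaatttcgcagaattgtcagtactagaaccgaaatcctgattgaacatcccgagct

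The *DCL3* and *NRPE1* stretches are in lower case throughout, and 0% of the words in these clusters recurred anywhere in the genome. In the whole *RDR2* cluster 50 of 645 words recurred, at 3 other places on 3 chromosomes, of which 2 lay in other clusters. In the *IBM1* cluster 17 of 866 words recurred, at 2 other places, 1 of them in another cluster. The *NRPD1* cluster had 36 recurring words of 970, with 0 other places found. Other places were sought on chromosomes 1 to 5 alone. Copies within the *NRPD1* cluster and copies on other sequences of the reference were therefore not told apart. The median share of recurring words was 2.84% over the 6 clusters, against 8.10% over the 15659 clusters that were tested and 10.9% of the words of the 5 chromosomes. GC content was 32.3% at the median, against 35.2% over all tested clusters, and the median number of CG sites was 4.56 against 4.57 per 100 bases.

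**Figure D1:**
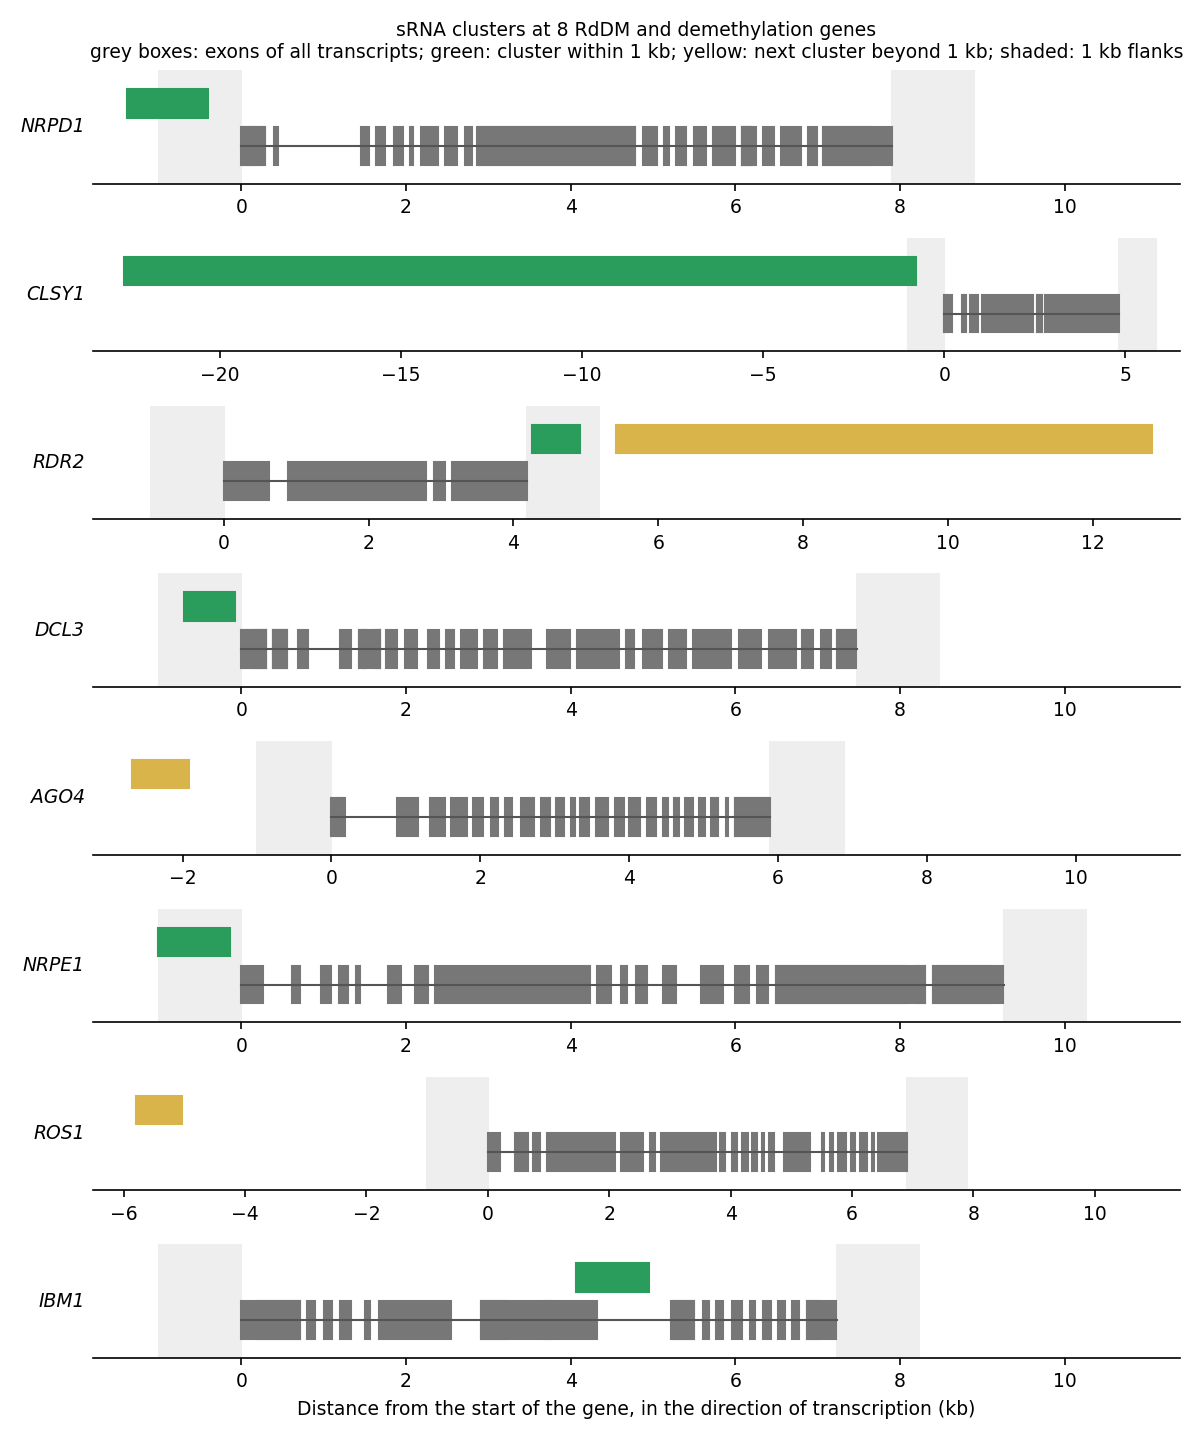
Position of sRNA clusters at the 8 genes. The horizontal axis is the distance from the start of the gene in kb, drawn in the direction of transcription with its own scale for each gene, grey boxes are exons of all annotated transcripts, and shading marks the 1 kb flanks. Green boxes are the 6 clusters within 1 kb, of which 4 lie upstream, 1 downstream (*RDR2*) and 1 inside the gene (*IBM1*), and yellow boxes are the next clusters of *RDR2*, *AGO4* and *ROS1*.

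The clusters lay mostly in front of the genes. At *NRPD1*, *CLSY1*, *DCL3* and *NRPE1* the cluster was upstream of the start, at *RDR2* it was downstream of the end, and only at *IBM1* was it inside the gene. Thus 1 of the 8 genes (12.5%) had a cluster in its span and 6 (75.0%) had one within 1 kb, whereas over 27444 protein-coding genes of the annotation 31.8% had a cluster in the span and 52.8% had one within 1 kb. The difference between 8 genes and all genes was not tested. None of the 6 clusters touched coding sequence of its gene.

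No cluster at these genes passed the test for a difference between memory and wild type. All 6 passed the filter on low counts, and 0 of 6 had an adjusted p below 0.05 by edgeR's quasi-likelihood test, where 0.00639% of all tested clusters (1 of 15659) did. Likewise 0 of 6 had an unadjusted p below 0.05, against 10.5% of all tested clusters, and 0 of 6 were called by DESeq2, against 1.88% of the clusters it gave an adjusted p, or by edgeR's likelihood ratio test, against 0.875%. In 1 of the 6, that of *DCL3*, both memory plants were above all 4 wild type plants, which was the case in 10.1% of all tested clusters. In 2 of the 6, those of *NRPD1* and *NRPE1*, both memory plants were below all wild type plants, as in 12.0% of all tested clusters. These comparisons use CPM scaled by the TMM method. Scaled by library size alone, the groups stayed apart at *NRPD1* but overlapped at *DCL3* and *NRPE1*. The median log2 fold change, memory over wild type, was 0.15 over the 6 clusters and -0.03 over all. In whole leaves, fewer cells of a type and less RNA per cell cannot be told apart. In what follows, levels are CPM scaled by the TMM method, fold changes are log2 of memory over wild type with an approximate standard error (SE), and p-values are from edgeR's quasi-likelihood test, adjusted over all tested clusters.

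**Figure D2:**
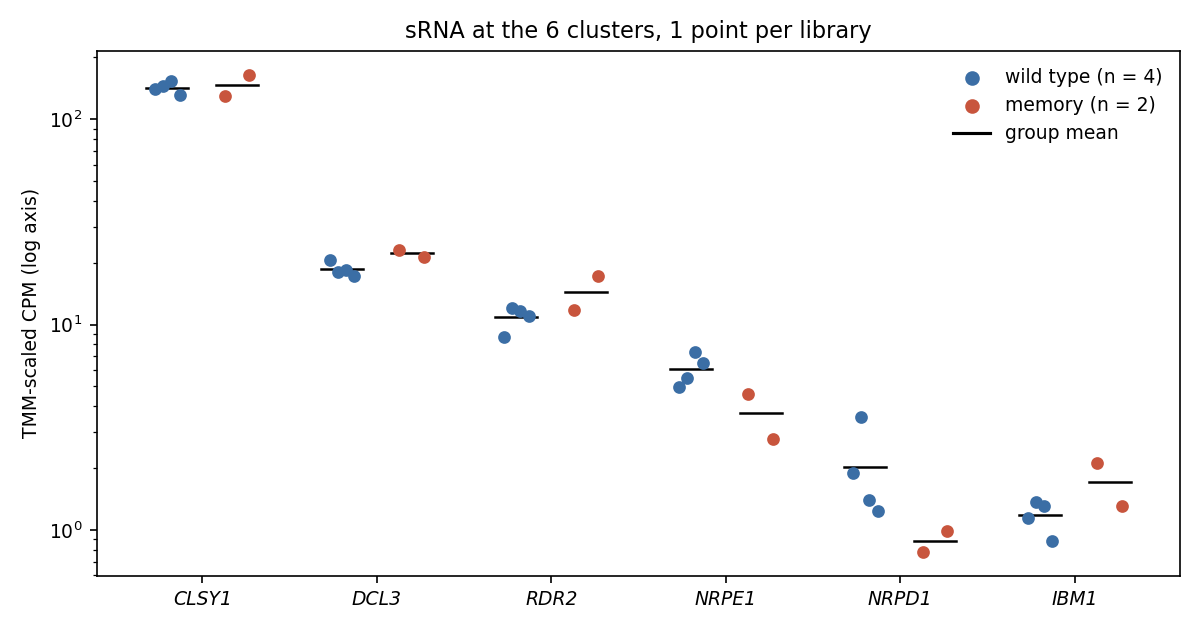
TMM-scaled CPM, on a log axis, at the cluster of each gene, with 1 point per library (blue, 4 wild type; red, 2 memory) and a black line at the group mean. Both red points lie above the blue points at *DCL3* and below them at *NRPE1* and *NRPD1*, and the groups overlap at *CLSY1*, *RDR2* and *IBM1*.

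*NRPD1* (AT1G63020, chr1:23354685-23362589, minus strand) encodes the largest subunit of RNA polymerase IV. Its cluster, Cluster_3396 at chr1:23362991-23363983, spans 993 bases, begins 402 bases upstream of the gene and has no other gene within 1 kb. The counts were 28, 49, 16 and 14 in wild type 1 to 4 and 10 and 6 in memory 1 and 2. In CPM these were 1.89, 3.54, 1.39 and 1.23 against 0.781 and 0.981. Both memory plants were lowest, but the wild type plants themselves spread widely, with wild type 2 at 2.87 times wild type 4 and a coefficient of variation (CV) of 52.3%. The means were 2.01 ± 1.05 CPM (SD, n = 4) and 0.881 ± 0.141 CPM (SD, n = 2). The log2 fold change of -1.21 ± 0.57 (SE) did not pass the test (edgeR adjusted p = 0.514). Without wild type 2 the fold change was -0.79.

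*CLSY1* (AT3G42670, chr3:14755798-14760629, minus strand; CHR38 in RefSeq) encodes a remodeller that brings RNA polymerase IV to chromatin. Cluster_9384, at chr3:14761400-14783275, is 21876 bases wide, starts 771 bases upstream of the gene and covers 6 annotated pseudogenes, so most of it lies far from *CLSY1*. Wild type 1 to 4 had 2073, 2016, 1767 and 1481 counts and memory 1 and 2 had 1663 and 1009, which is 139.8, 145.5, 154.0 and 130.6 CPM against 130.0 and 165.0 CPM. The memory plants were the lowest and the highest of the 6. The means of 142 ± 9.83 CPM and 147 ± 24.8 CPM gave a log2 fold change of 0.05 ± 0.15 (edgeR adjusted p = 0.929), with a wild type CV of 6.90%. This was by far the largest of the 6 clusters, with 75.5 to 79.3% of their joint counts in each library.

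*RDR2* (AT4G11130, chr4:6780449-6784632, plus strand) encodes the RNA-dependent RNA polymerase that pairs with polymerase IV. Cluster_12058 at chr4:6784700-6785367 begins 68 bases past the end of the gene and is 668 bases wide. Its counts were 129, 166, 134 and 125 in wild type and 150 and 105 in memory. These made 8.70, 12.0, 11.7 and 11.0 CPM against 11.7 and 17.2 CPM, so that memory 1 sat among the wild type plants and memory 2 above them. The means were 10.8 ± 1.48 CPM and 14.4 ± 3.86 CPM, with a log2 fold change of 0.41 ± 0.24 (edgeR adjusted p = 0.562). Memory 2 decided its size, since the fold change was 0.11 without that plant and 0.67 without memory 1. A neighbouring cluster, Cluster_12059, begins 1235 bases past the gene, outside the 1 kb limit, and is 7402 bases wide. There the memory plants were both lower, at 21.8 ± 2.06 CPM against 37.2 ± 9.40 CPM (log2 fold change -0.77 ± 0.27, edgeR adjusted p = 0.455). By library size alone, however, memory 1 was just above wild type 1. Of the words of Cluster_12059, 26.4% recurred in the genome.

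*DCL3* (AT3G43920, chr3:15753387-15760859, plus strand) encodes the Dicer-like enzyme that makes the siRNA of RdDM. Cluster_9563, at chr3:15752689-15753307, ends 80 bases upstream of the gene, and its first base is also the last of the neighbouring gene AT3G43910. The counts were 306, 251, 211 and 196 in wild type and 295 and 131 in memory. In CPM they were 20.6, 18.1, 18.4 and 17.3 against 23.1 and 21.4, a narrow range in which both memory plants were highest. The means of 18.6 ± 1.43 CPM and 22.2 ± 1.15 CPM gave a log2 fold change of 0.26 ± 0.14 (edgeR adjusted p = 0.550). Scaled by library size alone, the log2 fold change was 0.06, and memory 2 was the lowest plant. Per length this cluster was the densest of the 6, at 32.0 CPM per kb.

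*AGO4* (AT2G27040, chr2:11536502-11542391, minus strand), the main Argonaute of RdDM, had no cluster within 1 kb. The nearest, Cluster_6429 at chr2:11544310-11545066, starts 1919 bases upstream and was strong and even. Its level was 158 ± 19.1 CPM over the wild type and 158 ± 24.1 CPM over the memory plants, with a log2 fold change of 0.00 ± 0.17 (edgeR adjusted p = 0.997).

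*NRPE1* (AT2G40030, chr2:16714460-16723718, plus strand) encodes the largest subunit of RNA polymerase V. Cluster_6965 at chr2:16713446-16714317, 872 bases wide, ends 143 bases upstream of the gene, between it and AT2G40020. The counts were 74, 76, 84 and 74 in wild type and 59 and 17 in memory. As CPM they were 4.99, 5.49, 7.32 and 6.52 against 4.61 and 2.78. Both memory plants were below every wild type plant, with memory 1 just below wild type 1. Scaled by library size alone, memory 1 was above wild type 1. The means were 6.08 ± 1.04 CPM and 3.70 ± 1.29 CPM and the log2 fold change was -0.70 ± 0.33 (edgeR adjusted p = 0.507). Its size again turned on memory 2, with -0.40 without that plant and -1.11 without memory 1.

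*ROS1* (AT2G36490, chr2:15307907-15314807, minus strand; DML1 in RefSeq) had no cluster within 1 kb or 2 kb. The nearest was 5032 bases away at chr2:15319839-15320601 (Cluster_6832) and was erratic in both groups. Wild type 1 to 4 had 60, 219, 5 and 17 counts there and memory 1 and 2 had 249 and 3, or 5.45 ± 7.07 CPM and 9.97 ± 13.4 CPM.

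*IBM1* (AT3G07610, chr3:2425884-2433113, plus strand) was the one gene of the 8 with a cluster inside it. Cluster_7445 at chr3:2429950-2430838, 889 bases wide, lies wholly within intron 7 of a long transcript with 16 exons. This intron has 1974 bases, whereas the next longest of that transcript has 368. The short transcript ends in the same intron, and the cluster shares 254 bases with its last exon, its exon 7. The cluster was weak, with 17, 19, 15 and 10 counts in the wild type plants and 27 and 8 in the memory plants. In CPM these were 1.15, 1.37, 1.31 and 0.882 against 2.11 and 1.31, so memory 1 was highest and memory 2 lay among the wild type plants. The means of 1.18 ± 0.218 CPM and 1.71 ± 0.567 CPM gave a log2 fold change of 0.56 ± 0.37 (edgeR adjusted p = 0.602), which was 0.16 without memory 1 and 0.83 without memory 2.

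Measured per length, the mean over the 6 libraries was 32.0 CPM per kb at *DCL3*, 18.0 at *RDR2*, 6.59 at *CLSY1*, 6.06 at *NRPE1*, 1.65 at *NRPD1* and 1.52 at *IBM1*. The order of *CLSY1* and *NRPE1*, and of *NRPD1* and *IBM1*, was within the spread between plants. The median over all tested clusters was 4.53 CPM per kb. The wild type CV, at 15.4% for the median of the 6 against 25.5% over all, was lowest for the cluster with the most CPM, that of *CLSY1*. Summed over the 6 clusters the wild type plants held 168 to 194 CPM and the memory plants 172 and 209 CPM. Without the *CLSY1* cluster the sums were 36.9 to 40.5 CPM and 42.3 and 43.7 CPM. Scaled by library size alone, the sums without *CLSY1* overlapped between the groups.

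**Figure D3:**
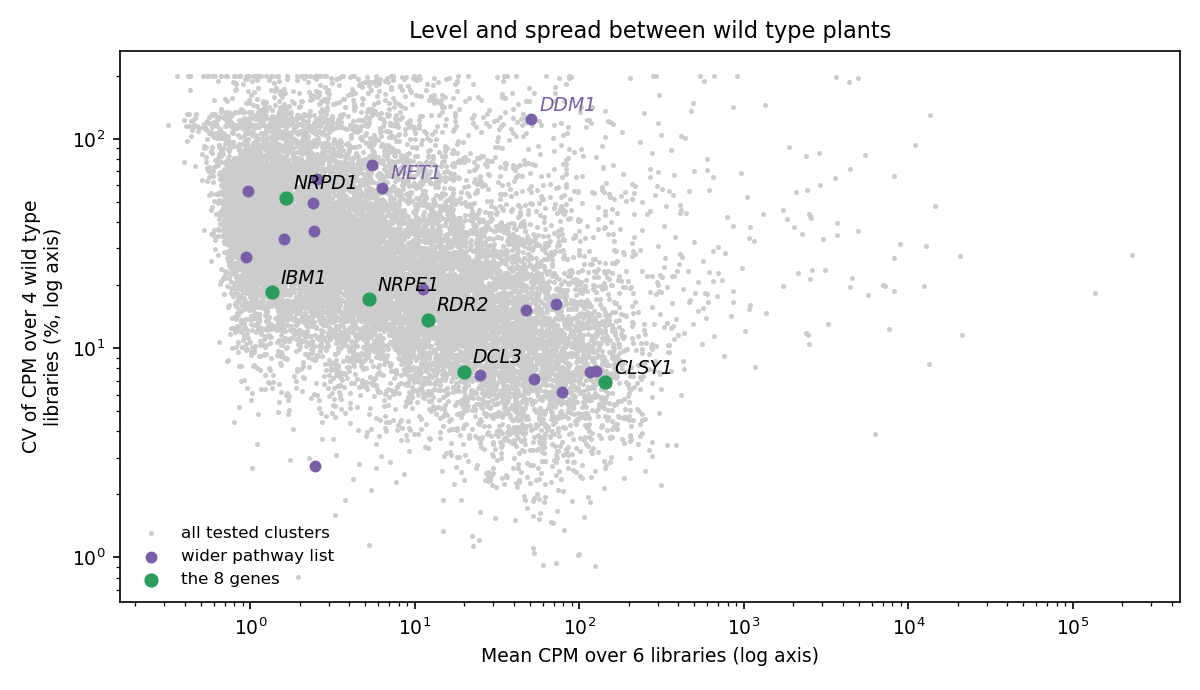
Mean CPM over the 6 libraries against the CV of CPM over the 4 wild type libraries, both on log axes, for all tested clusters (grey), those at the 8 genes (green, named) and those at the wider pathway list (purple). The green points run from *NRPD1*, with a CV of 52.3%, to *CLSY1*, with 6.90%, and *DDM1* stands out from the purple points of its level.

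For the 4 clusters with a mean of at least 5 CPM, the other clusters most like them over the 6 libraries were looked up by Pearson's r of log2(CPM + 0.5), as a description, among 8085 clusters of that level. Cluster_9384 (*CLSY1*) was most like Cluster_10094 (r = 0.994) and Cluster_559 (r = 0.994). Cluster_12058 (*RDR2*) was most like Cluster_3545 (r = 0.997) and Cluster_4227 (r = 0.995). For Cluster_9563 (*DCL3*) the closest were Cluster_5474 (r = 0.990) and Cluster_10859 (r = 0.983), and for Cluster_6965 (*NRPE1*) Cluster_2316 (r = 0.996) and Cluster_8806 (r = 0.992). With 6 libraries such values are easily reached, and between 17 and 90 clusters had r above 0.95 with each of these 4.

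A wider list of 41 genes of siRNA production, siRNA action, methylation maintenance and demethylation was read in the same way. A cluster lay within 1 kb of 18 of them (43.9%), namely 5 of 9 genes of siRNA production, 5 of 13 of siRNA action, 3 of 10 of maintenance and 5 of 9 of demethylation. Genes without a cluster included *DRM1* and *DRM2*, the methyltransferases of RdDM, *CMT2* and *CMT3*, the methyltransferases of CHH and CHG sites, and *DME*, a DNA glycosylase related to ROS1. Of the 22 clusters at the 18 genes, 18 were tested and 0 had an adjusted p below 0.05 by edgeR's quasi-likelihood test. By unadjusted p 1 of 18 was below 0.05, against 10.5% of all tested clusters. DESeq2 and edgeR's likelihood ratio test called that 1, against 1.88% and 0.875% over all. The fold changes were positive in 9 and negative in 9, with both memory plants above all wild type plants in 2 of 18 (10.1% over all) and below in 3 (12.0% over all).

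The 5 strongest clusters of the wider list did not pass the test. At *MORC6*, which encodes an ATPase of gene silencing, Cluster_655 lies upstream, is 6854 bases wide and overlaps 2 other genes. It held 124 ± 9.65 CPM in wild type, against 129 ± 17.0 CPM in memory (log2 fold change 0.06 ± 0.14). At *VIM1*, whose product binds hemimethylated DNA, Cluster_3143 begins 200 bases upstream. It held 123 ± 9.43 CPM against 104 ± 2.03 CPM, with both memory plants lowest (-0.24 ± 0.13, edgeR adjusted p = 0.550). That order rested on the scaling, since by library size alone memory 1 was above wild type 1. At *DMS3*, a component of the DDR complex that works with polymerase V, Cluster_10044 also overlaps 2 other genes. It held 80.8 ± 4.96 CPM against 74.0 ± 5.15 CPM. Cluster_14065 at the start of *DCL4*, which makes the siRNA of other pathways, held 73.8 ± 11.9 CPM against 69.6 ± 3.64 CPM. Cluster_8117, upstream of the *CLSY1* relative *CHR40* (AT3G24340) and overlapping 1 other gene, held 54.0 ± 3.85 CPM against 50.3 ± 9.57 CPM.

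The cluster with the lowest unadjusted p of the list lay inside *MET1*, the CG maintenance methyltransferase. Cluster_16440 had 40, 8, 21 and 13 counts in the wild type plants and 73 and 160 in the memory plants. In CPM these were 2.70, 0.577, 1.83 and 1.15 against 5.70 and 26.2, so both memory plants were highest and memory 2 far above memory 1. The 431 bases of the cluster were all exon and coding sequence. The log2 fold change was 3.33 ± 0.75 (edgeR adjusted p = 0.364). It was 1.85 without memory 2 and 4.06 without memory 1. *MET1* had another cluster within 1 kb, Cluster_16439, 437 bases upstream. That cluster held 2.50 ± 0.913 CPM in wild type against 2.27 ± 0.209 CPM in memory (log2 fold change -0.13 ± 0.41).

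**Figure D4:**
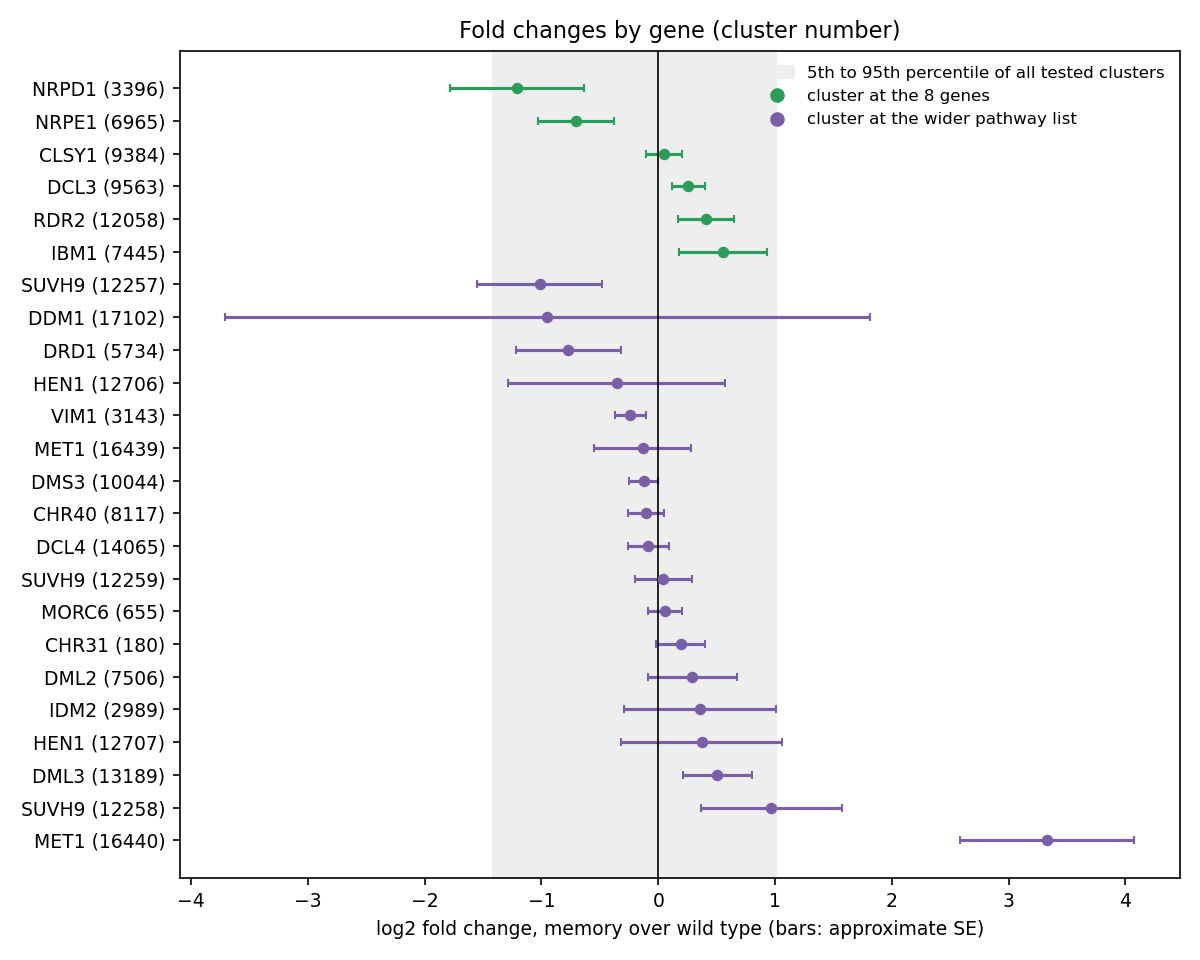
Log2 fold change, memory over wild type, with approximate SE, for the 6 clusters at the 8 genes (green) and the 18 tested clusters at the wider pathway list (purple), named by gene with the cluster number in brackets. The grey band spans the 5th to the 95th percentile of all tested clusters, -1.42 to 1.00, and the 6 green points lie within it.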

How the data were processed

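sRNA-seq libraries of 2 memory and 4 wild type plants, prepared by a TruSeq small RNA kit, were analysed from counts of reads per cluster as deposited by the authors, who aligned each library to TAIR10 with ShortStack (default settings, alignment only) and merged alignments with SAMtools. The study describes its screen as one of 24-nt sRNA. It reports far more differentially expressed clusters than were called here. The test behind its calls is not given in the sources used here, and the 2 sets of calls were not compared. Whether the deposited counts hold that length alone, and how clusters were defined and reads counted in them, is not given in the sources used here. The 8 genes and the wider list of 41 were chosen with earlier results of these data known.

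Gene spans and sequences came from RefSeq's TAIR10.1, whose chromosomes keep the TAIR10 coordinates and in which all 49 genes matched by locus. *CLSY2*, *CLSY3*, *CLSY4* and *ZDP* are not names used there. Counts were tested over all 6 libraries with edgeR 4.0.16 in R 4.3.3 (TMM scaling, default filter on low counts, quasi-likelihood test, group alone, Benjamini-Hochberg over 15659 clusters, threshold 0.05). The SE was the size of the log2 fold change over the square root of F. Each library is 1 plant, so p-values rest on the spread between plants, and library pairs differed by more than counting noise. All clusters at the 8 genes were described. Of the wider list, those with an adjusted p below 0.05, the 5 highest in mean CPM, and up to 5 with the smallest unadjusted p below 0.05 and groups that did not overlap were named. Scripts were tested on simulated data. Alternatives were other scalings, DESeq2 1.42.0, the likelihood ratio test, other filters, a stricter threshold, single libraries left out, a replicate block and flanks of 0 or 2 kb.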

Additional observations from a re-analysis of the deposited data

Results flagged for a closer look

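Of 13 values looked at over the 4 wild type plants, 1 had a plant far from the rest, where chance gives about 0.65. It was the total count per library, in which wild type 1, with 18134284 counts, stood apart from the other wild type libraries, with 10151442 to 11358287 (gap over range 0.849, above the limit of Dixon's test). Its rank correlations with the other wild type libraries were also lower, at 0.828 to 0.835 against 0.908 to 0.910 among these. Without wild type 1 the log2 fold changes were -1.24 at *NRPD1*, -0.78 at *NRPE1*, 0.04 at *CLSY1*, 0.31 at *DCL3*, 0.32 at *RDR2* and 0.55 at *IBM1*, and 0 of the 6 were called.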

How the results depend on the processing

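The count of called clusters at the 8 genes was 0 under each of the alternatives run. Over all clusters edgeR called 1, against 245 by DESeq2, 137 by the likelihood ratio test, 7 with scaling by library size alone, 2 with a minimum of 10 counts in every library, and 0 to 9 when single libraries were left out. At the wider list DESeq2 and the likelihood ratio test each called 1 of the tested clusters, that in *MET1*, where the quasi-likelihood test called 0. The refits of the *MET1* cluster, chosen after seeing the data, gave 1.85 to 4.06 with single libraries left out. Of the 8 genes 6 had a cluster within 1 kb, 1 in the gene span alone and 7 within 2 kb. Of 88 refits of single clusters at the 8 genes, 86 kept their direction, 2 reversed and 0 were called. Both reversals were for Cluster_9384 at *CLSY1*, to -0.20 with library size alone and to -0.14 without memory 2. Library size alone moved the median of all clusters from -0.03 to -0.23. With it the log2 fold changes were 0.06 at *DCL3*, 0.13 at *RDR2*, 0.38 at *IBM1*, -0.88 at *NRPE1* and -1.46 at *NRPD1*. The lowest adjusted p in these refits was 0.271, at *NRPE1* without memory 1, and 3 had an unadjusted p below 0.05. That of *NRPE1* and that of *RDR2* came without memory 1, where memory 2 stands alone and is assumed to vary like wild type. That of *NRPD1* came with libraries 1 and 2 and no block. Leaving out single libraries gave ranges of -1.38 to -0.79 at *NRPD1*, -1.11 to -0.40 at *NRPE1*, 0.11 to 0.67 at *RDR2*, 0.16 to 0.83 at *IBM1*, 0.21 to 0.31 at *DCL3* and -0.14 to 0.22 at *CLSY1*. The clusters of *NRPD1* and *IBM1* have too few counts for the stricter filter. With libraries numbered 1 and 2 of each group, a replicate block called 0 clusters and the same libraries with no block called 0. The numbers only name plants, and same-numbered libraries did not deviate together (correlation -0.07 over 15659 clusters). Memory 2 was the shallowest library, and its 3 counts are 0.491 CPM, which limits the clusters of *NRPD1* and *IBM1* most.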

Other observations

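At 3 clusters of the wider list the counts differed widely between plants of a group. They were chosen after their values were seen and are given as values only. At *DDM1* (AT5G66750), a chromatin remodeller needed for DNA methylation, Cluster_17102 at chr5:26652828-26653435 overlaps the last 364 bases of the gene and also holds AT5G66755, a tRNA gene for glutamic acid of 72 bases. There were 0 counts in 3 plants (wild type 1, wild type 4, memory 2), and 1197, 1786 and 795 counts in wild type 2, wild type 3 and memory 1. The plants with sRNA held 62.1 to 156 CPM, at least 127-fold above the level of 3 counts in any plant without. Of its words of 24 bases 10.8% recurred in the genome, and their part in this pattern was not tested. No other tested cluster had the same 3 plants at 0 with at least 5 CPM in the others, and 43 of 15659 tested clusters (0.275%) were at 0 in a wild type plant and at 50 CPM or more in another. In *SPT5L*, an elongation factor that binds AGO4, Cluster_13521 had 168 counts in wild type 1 and 1 to 9 in the other plants. Upstream of *NRPD2*, the subunit shared by RNA polymerases IV and V, Cluster_8087 had 52 counts in memory 1 and 0 in the others. Neither of the latter passed the filter on low counts.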
